A study of Mus musculus with 3 samples.

Results

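The subject is a set of 9 genes, Mitf, Sox10, Pax3, Tfap2a, Sox9, Sox11, Axl, Ngfr and Met, chosen by name from the 32285 genes counted in 3 single-cell RNA sequencing (scRNA-Seq) libraries of B16-F10 tumors. B16-F10 is a pigmented melanoma cell line of C57BL/6 origin, and the tumors were grown in C57BL/6J mice that were 6 to 8 weeks old. Each library held the pooled tumors of 3 mice, freed of red blood cells by lysis, so the mice within a library could not be separated. The shCtrl library came from B16-F10 cells with a control short hairpin RNA. The shMib2 replicate 1 and shMib2 replicate 2 libraries came from B16-F10 cells with an shRNA against Mib2, an E3 ubiquitin ligase, under the same treatment label. The sources used here do not say whether they carried the same hairpin, so a difference between hairpins may be part of their spread, and shCtrl had no replicate.

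The values are unique molecular identifiers (UMIs), which count captured RNA molecules. They were summed over the cells of a class in a library and expressed per 1000000 UMIs of those cells (CPM). A melanoma cell was any retained barcode with 5000 or more UMIs of which at least 0.5% came from Dct and Pmel, both melanin genes. The rule selected 7467, 5982 and 3531 cells (here and below in the order shCtrl, shMib2 replicate 1, shMib2 replicate 2), which were 91.1%, 75.0% and 51.5% of the retained barcodes. Fibroblasts were a cluster named from 12 markers and numbered 6, 253 and 222 cells. Intervals given after a value are exact 95% Poisson intervals for a level and exact Clopper-Pearson intervals for a share. They cover counting error only.

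Melanocytes arise from the neural crest. PAX3 and SOX10 act on the promoter from which melanocytes transcribe Mitf, and MITF, a basic helix-loop-helix factor that binds E-boxes, then drives melanin synthesis genes. TFAP2A cooperates with MITF at many of those genes. In melanoma, a low-MITF, dedifferentiated state is commonly described by high AXL, a receptor tyrosine kinase for GAS6, by high NGFR, the low-affinity neurotrophin receptor of neural crest cells, and by SOX9 in place of SOX10. MET, the receptor for hepatocyte growth factor, is different in that MITF is known to drive it.

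Coordinates are those of mm10 with GENCODE vM21 gene models. Mitf spans chr6:97807052-98021349 and Met chr6:17463800-17573980, both on the plus strand. Sox9 lies at chr11:112782224-112787760 on the plus strand and Ngfr on the same chromosome at chr11:95568818-95587735 on the minus strand. The other 5 genes are on minus strands: Sox10 at chr15:79154908-79165240, Pax3 at chr1:78101267-78197134, Tfap2a at chr13:40715302-40738376, Sox11 at chr12:27334264-27342574 and Axl at chr7:25757273-25788705. Tfap2a overlaps 3 annotated genes on the opposite strand and Mitf overlaps 1 pseudogene, Gm15531, on the opposite strand. Their counts are less certain, because the strand setting of the counting is not given in the sources used here.

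Promoter windows, the 250 bases before an annotated start, were taken from RefSeq on GRCm38.p6, the assembly of mm10, and 6 of the 9 genes had at least 1. They are shown for 3 genes as background: the melanocyte start of Mitf, the start of Axl, and, for Met, 30 bases around its E-box. Capitals mark a motif.
Mitf, chr6:97991533-97991782, plus strand: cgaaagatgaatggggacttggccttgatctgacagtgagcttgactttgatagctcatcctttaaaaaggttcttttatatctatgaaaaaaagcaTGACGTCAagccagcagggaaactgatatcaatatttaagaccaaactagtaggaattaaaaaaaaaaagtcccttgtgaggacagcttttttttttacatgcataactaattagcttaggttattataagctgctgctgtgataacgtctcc
Axl, chr7:25788734-25788983, minus strand: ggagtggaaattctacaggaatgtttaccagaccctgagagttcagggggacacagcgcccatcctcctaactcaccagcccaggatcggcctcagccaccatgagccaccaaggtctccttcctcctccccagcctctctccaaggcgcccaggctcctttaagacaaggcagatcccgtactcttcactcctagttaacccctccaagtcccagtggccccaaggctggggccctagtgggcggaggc
Met, chr6:17463819-17463848, plus strand: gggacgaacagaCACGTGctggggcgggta
The Mitf window held TGACGTCA, the palindromic cAMP response element, with its first base at -153 from the start. This motif occurred on either strand in 1.55% of the 32851 promoter windows of the same length. The Met window held the E-box CACGTG, first base at -126 from the RefSeq start, a motif found in 6.02% of windows. In GENCODE Met starts further upstream, 157 of the 250 bases of its window are exonic there, and the E-box lies inside the annotated gene. The Axl window held none of the 6 motifs searched on both strands, which besides those were the E-box CATGTG (12.3% of windows), the SOX motif ACAAAG (16.5%), the interferon-stimulated response element (2.98%) and the STAT motif TTCNNNGAA (7.02%). These matches describe the letters of the windows. No binding was measured.

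The libraries held 190904274 to 243926188 UMIs in 8388 to 9558 barcodes, and the median melanoma cell held 26434, 24934 and 43811 UMIs in the order above. At most 0.318% of the barcodes of a library were shared with another. Mib2 was checked first. Its level in melanoma cells was 2.42 CPM (511 UMIs) in the library labelled shCtrl, 3.13 CPM (498 UMIs) in that labelled shMib2 replicate 1 and 2.61 CPM (422 UMIs) in that labelled shMib2 replicate 2, so it was not lower in either library labelled shMib2. Directions below are directions between these labels. By the rule that made the classes, Dct and Pmel made up 1.22 to 1.35% of UMIs in melanoma cells and 0.0233 to 0.0445% in fibroblasts. The 6 melanoma markers that the rule did not use summed to 7648, 8185 and 7863 CPM in melanoma cells against 366, 393 and 234 CPM in fibroblasts. The fibroblast markers, which named that cluster, summed to 42096, 49053 and 49725 CPM there.

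The lineage factors were present in nearly every melanoma cell of all 3 libraries, and their levels were alike. Mitf, the factor at the center of the melanocyte program, stood at 364 CPM (361-366) in shCtrl, 397 CPM (394-400) in shMib2 replicate 1 and 385 CPM (382-388) in shMib2 replicate 2. Both shMib2 libraries lay above shCtrl, by 1.09 and 1.06 times. Sox10, its neural crest activator, had 159, 160 and 169 CPM. Pax3, the paired-box activator, had 204, 206 and 212 CPM. For both activators shCtrl was the lowest of the 3 libraries, and shMib2 replicate 1 lay closer to shCtrl than to shMib2 replicate 2.

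Tfap2a and the other SOX factors were detected less often. Tfap2a had 30.5, 34.4 and 32.9 CPM. Sox9, which specifies neural crest and cartilage, had 13.1, 15.4 and 14.3 CPM. In these genes too the shMib2 libraries were both higher than shCtrl. Sox11, a SoxC factor of embryonic and neural progenitors, had 119, 125 and 114 CPM, so shCtrl lay between the shMib2 libraries.

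The receptors differed from one another in how many melanoma cells held them. Met was the receptor found in almost every cell, with 457, 505 and 481 CPM. Axl had 4.58 CPM (4.29-4.88), 7.97 CPM (7.53-8.42) and 7.21 CPM (6.80-7.63), from 965, 1268 and 1163 UMIs. The shMib2 libraries stood at 1.74 and 1.57 times shCtrl, and their intervals lay close to each other and well apart from that of shCtrl. Ngfr was close to absent, with 2, 3 and 1 UMIs over all melanoma cells of a library, too few to pass the filter on low counts. Without that filter its log2 fold change was 0.32 (SE 1.05, edgeR adjusted p = 0.896), so a difference was not detectable at this depth.

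**Figure D1:**
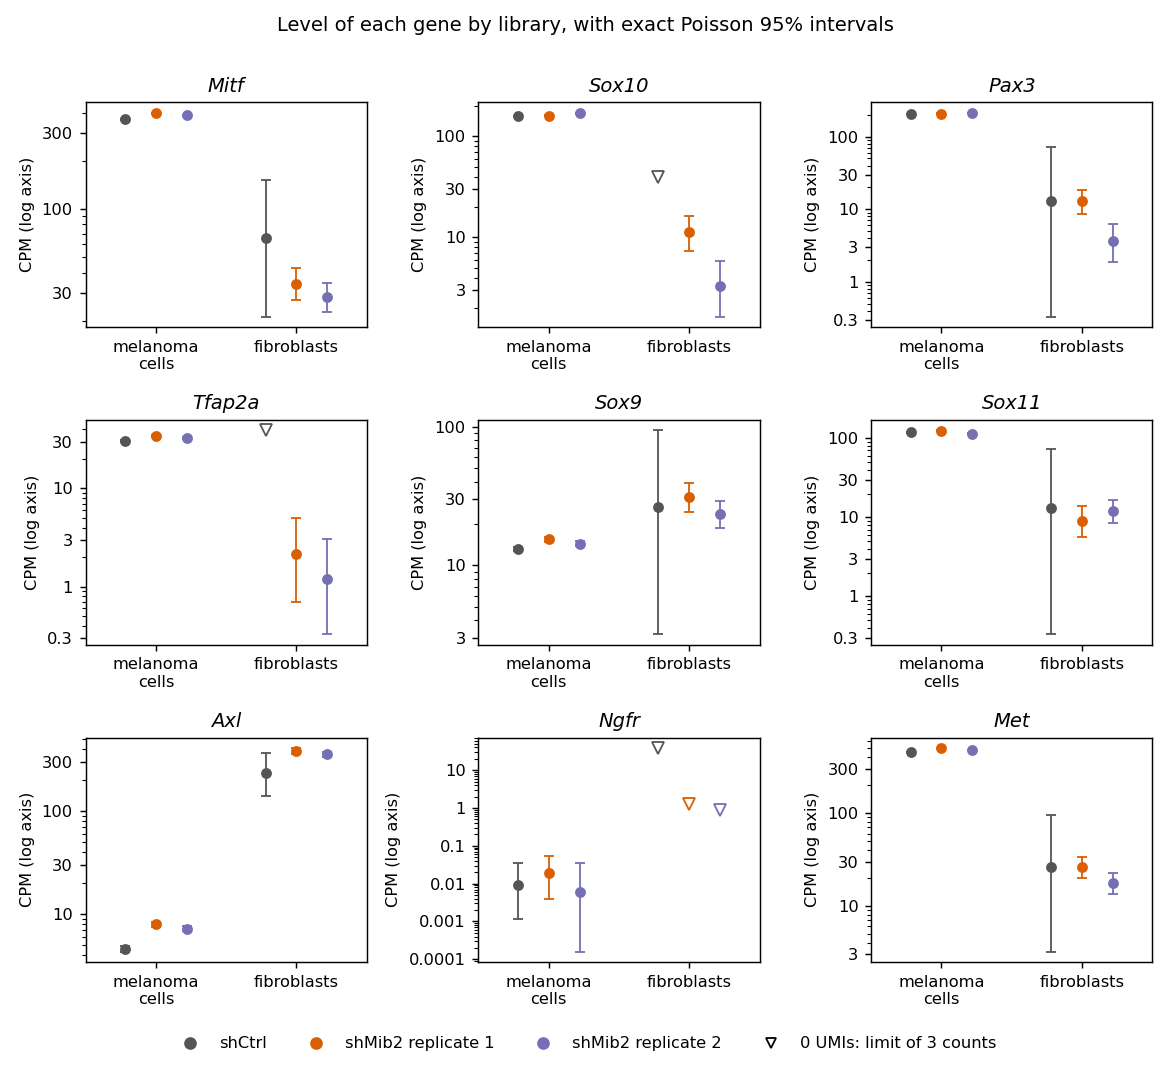
CPM of the 9 genes (log axis) in melanoma cells and in fibroblasts of each library, with exact 95% Poisson intervals as bars and the limit that 0 UMIs allows where none were counted. Axl lies between 4.58 and 7.97 CPM in melanoma cells and between 235 and 389 CPM in fibroblasts, the reverse of Mitf and Met.

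The comparison of the shMib2 libraries with shCtrl was made in melanoma cells with edgeR's quasi-likelihood test over 15700 genes, with 1 residual degree of freedom. The lone shCtrl library was assumed to vary as the shMib2 libraries did, and the p-values measure only the spread between these libraries. Of the 9 genes, 8 passed the filter on low counts and 1 was called at an adjusted p under 0.05, Axl, which rose. Over all genes tested 0.834% were called (131 genes), 0.815% higher in shMib2 (128 genes) and 0.0191% lower (3 genes), and 2580 had an unadjusted p under 0.05. Axl had a log2 fold change of 0.68 (SE 0.08, edgeR adjusted p = 0.0284), and was higher in 2 of 2 shMib2 libraries. Ngfr did not pass the filter.

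The other 7 genes were not called, and their log2 fold changes lay between -0.04 and 0.13, beside a median of 0.01 over all genes tested. Sox9 had the largest, 0.13 (SE 0.05, edgeR adjusted p = 0.317), and Tfap2a had 0.10 (SE 0.05, edgeR adjusted p = 0.358). Mitf and Met each had 0.06, with edgeR adjusted p-values of 0.635 and 0.624. The values for Sox10, Pax3 and Sox11 were 0.01, -0.01 and -0.04, with edgeR adjusted p-values of 0.950, 0.951 and 0.763. None of the 7 had an unadjusted p under 0.05, and 91 further fits of them with other settings, DESeq2 included, gave 0 calls. Those settings called only 0 to 1.61% of all genes tested, so 0 calls among 7 genes was near the share over all genes. The Axl call held in 6 of 13 such fits.

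**Figure D2:**
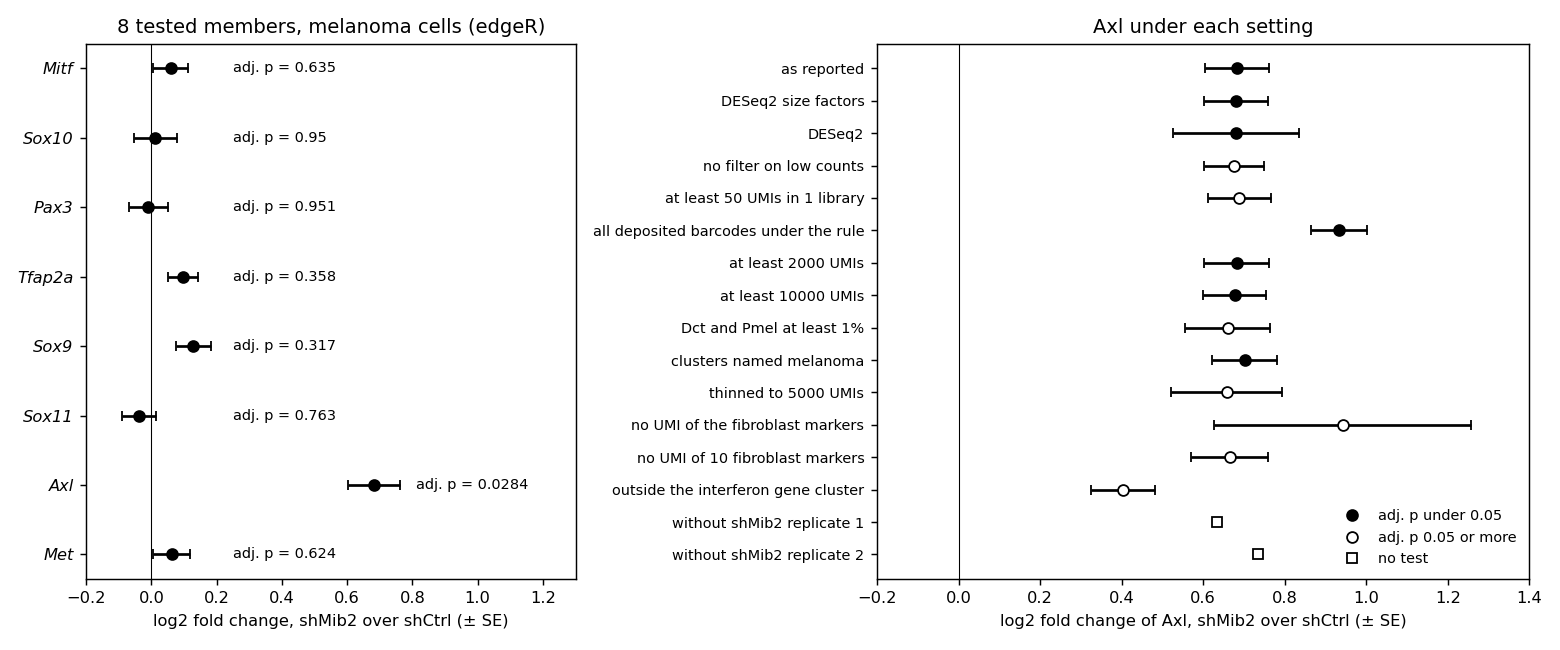
Left, log2 fold change of the 8 tested genes in melanoma cells, shMib2 over shCtrl, with SE bars and edgeR adjusted p. Right, that of Axl under each setting, filled where the adjusted p was under 0.05 and square where no test was possible. Axl lies between 0.40 and 0.94 in every setting, and the other 7 genes lie between -0.04 and 0.13 in the left plot.

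Axl was foremost a fibroblast gene in these tumors. Fibroblasts held 235 CPM (140-372) of Axl in shCtrl, 389 CPM (364-415) in shMib2 replicate 1 and 360 CPM (340-381) in shMib2 replicate 2, which was 51.4 (30.4-81.7), 48.9 (44.8-53.3) and 50.0 (46.1-54.3) times the level of melanoma cells. An Axl UMI was found in 83.3%, 87.7% and 94.1% of fibroblasts. The shCtrl value rests on 18 UMIs in 6 cells, and no test between libraries was made in fibroblasts.

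Sox9 was the only other member above its melanoma level in fibroblasts, with 26.2, 31.1 and 23.4 CPM. Those were 1.99 (0.241-7.20), 2.02 (1.57-2.55) and 1.64 (1.29-2.06) times the melanoma values, so the difference exceeded counting error in both shMib2 libraries and not in shCtrl, where it rests on 2 UMIs. Ngfr had 0 UMIs in fibroblasts of every library, which by the limit of 3 counts allows up to 39.2, 1.29 and 0.900 CPM.

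The remaining 6 genes were low in fibroblasts. Mitf had 65.4, 34.1 and 28.2 CPM, 0.180, 0.0859 and 0.0732 times its melanoma level, and Met had 26.2, 26.3 and 17.4 CPM, 0.0572, 0.0522 and 0.0362 times its melanoma level. Free RNA from lysed melanoma cells enters droplets of other cells. Its amount was read from Dct and Pmel, which in fibroblasts reached 3.41%, 3.32% and 1.73% of their melanoma share.

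Set against that amount, Mitf in fibroblasts was 5.28 (1.71-12.3), 2.59 (2.05-3.23) and 4.23 (3.42-5.18) times the level that free RNA would carry. In T cells, taken as a background class, the same ratio for Mitf was 0.403 (0.0102-2.25), 1.27 (0.816-1.89) and 2.06 (1.55-2.67). In both shMib2 libraries these intervals lie below those of fibroblasts, and in shCtrl they overlap. Natural killer cells gave 1.39 and 1.47 in the shMib2 libraries, with an interval apart from that of fibroblasts in replicate 2 only. The Mitf ratio reached 3.35 (2.39-4.56) in mononuclear phagocytes and 2.84 (1.14-5.86) in B cells of shMib2 replicate 2. Those intervals overlap that of fibroblasts, and the B cell value rests on 7 UMIs. Fibroblast Mitf was thus above the T cell background in both shMib2 libraries, but not clearly above that of phagocytes or B cells. The source of this Mitf was not tested. Sox10 gave 2.11 (1.38-3.09) and 1.13 (0.562-2.01) in fibroblasts of the shMib2 libraries and 2.102 and 2.25 in T cells, so fibroblast Sox10 was within the background seen in T cells. Met gave 1.68, 1.57 and 2.09 in fibroblasts, beside 0.642, 1.04 and 1.74 in T cells and 2.998 and 3.02 in mononuclear phagocytes of the shMib2 libraries, and so was not above background either. Pax3 gave 1.88, 1.89 and 0.980. Sox11 stood higher, at 3.24, 2.19 and 6.09 in fibroblasts, from 1, 21 and 40 UMIs, beside 1.24, 0.843 and 0.869 in T cells. In shMib2 replicate 2 the fibroblast interval (4.35-8.29) lay above those of T cells (0.349-1.79), natural killer cells (0.336-2.41) and mononuclear phagocytes (0.0686-2.05). It overlapped that of B cells (0.0348-7.65), which rests on 1 UMI. In the other libraries the fibroblast and T cell intervals overlap. The source of this Sox11 was not tested.

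After fibroblasts, Axl was highest in an unnamed cluster led by Fabp4, Acta2 and Tagln. That cluster held 18, 60 and 76 cells that did not meet the melanoma rule. Axl in these was 137, 290 and 204 CPM, below fibroblasts by more than counting error in both shMib2 libraries and within it in shCtrl. Mononuclear phagocytes, in which AXL helps clear dead cells, had 0, 19.3 and 26.8 CPM of Axl from 0, 5 and 25 UMIs, and exceeded melanoma cells beyond counting error in shMib2 replicate 2 only. T cells had 0, 2.75 and 5.91 CPM from 0, 3 and 16 UMIs, and their intervals overlapped those of melanoma cells in every library. The cluster led by Fabp4 also had the highest Sox9 of all classes in both shMib2 libraries, with levels of 73.0, 191 and 143 CPM over the 3 libraries.

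A share of cells depends on depth, so classes were compared after cells were thinned to 1000 UMIs. Shallower cells were left out, which removed 14, 108 and 30 T cells and no melanoma cell or fibroblast. An Axl UMI was then present in 33.3%, 35.6% and 25.7% of fibroblasts, in 0.335%, 0.886% and 0.850% of melanoma cells, and in 0%, 0.730% and 0.401% of T cells. At this depth the share in melanoma cells was close to the background seen in T cells. Per droplet and without thinning, the mean number of Axl UMIs was 0.129, 0.212 and 0.329 in melanoma cells and 0, 0.00578 and 0.0205 in T cells, which are far shallower. For Mitf the thinned shares were 28.1%, 30.4% and 29.3% of melanoma cells, against 0%, 2.77% and 3.60% of fibroblasts.

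Another unnamed cluster held 1638 barcodes. Those that met the melanoma rule were counted as melanoma cells and left out here. The remaining 259, 285 and 1029 barcodes had a median of 2074 to 2520 UMIs, so most were too shallow for the rule. Their Dct at 2061 to 2168 CPM and Pmel at 824 to 1031 CPM were together under the 0.5% limit as well. They held Mitf at 183, 232 and 213 CPM and Sox10 at 101, 130 and 131 CPM. Their Met level was 69.7, 92.5 and 78.7 CPM. All these values were below those of melanoma cells and above those of fibroblasts.

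Within melanoma cells the lineage factors were detected together. An Mitf UMI was found in 96.4%, 96.8% and 97.1% of melanoma cells, a Sox10 UMI in 94.1%, 93.5% and 97.4%, and a Pax3 UMI in 96.5%, 96.5% and 98.3%. All 3 factors were detected in 6651, 5311 and 3336 cells, which were 89.1%, 88.8% and 94.5%. Cells with none of the 3 numbered 17, 19 and 9, or 0.228%, 0.318% and 0.255%, and were shallow, with median totals of 10959, 9328 and 8793 UMIs. Met was detected in 15, 16 and 6 of them and Axl in 1, 1 and 2. The melanoma rule bears on these counts, because Dct and Pmel are MITF targets and cells without the lineage program are selected against. Retained barcodes with 5000 or more UMIs but under 0.5% Dct and Pmel numbered 259, 540 and 747, of which 185, 183 and 117 lay in melanoma clusters. Of those, 8, 4 and 1 held none of the 3 factors, and 0 of these held an Axl UMI.

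The remaining genes ranged from near-complete to sparse detection. Met was found in 99.6%, 99.5% and 99.2% of melanoma cells and Sox11 in 86.6%, 87.2% and 93.3%. Tfap2a was found in 49.9%, 50.9% and 63.1%, Sox9 in 24.3%, 26.1% and 33.5%, and Axl in 11.5%, 16.3% and 22.6%. The shares were highest in shMib2 replicate 2, the deepest library per melanoma cell, for all of these but Met.

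With every melanoma cell thinned to 5000 UMIs the shares of shMib2 replicate 2 were no longer the highest, except for Sox10. Sox10 was then found in 52.0%, 53.0% and 54.4%, Pax3 in 60.7%, 62.0% and 61.8%, Tfap2a in 14.0%, 15.4% and 14.5% and Sox11 in 41.8%, 43.4% and 40.2%. For Axl the thinned shares were 2.34% (2.01-2.71), 3.53% (3.07-4.03) and 3.51% (2.93-4.17), so both shMib2 libraries remained above shCtrl beyond counting error. Met, at 86.5%, 88.4% and 86.9%, and Mitf, at 73.6%, 75.5% and 73.5%, were most often detected in shMib2 replicate 1.

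Mitf varied among cells more than counting would give. At 5000 UMIs per cell its mean was 1.84, 2.03 and 1.92 UMIs, for which a Poisson count would leave 84.1%, 86.8% and 85.4% of cells with a UMI, more than the shares observed. Its Fano factor, the variance over the mean and 1 for a Poisson count, was 1.87, 1.91 and 2.06. Met had 1.45, 1.51 and 1.51, Sox11 1.26, 1.21 and 1.24, and Pax3 1.20, 1.17 and 1.28. Sox10, Tfap2a and Sox9 lay between 1.11 and 1.20. Axl had 0.988 in shCtrl but 1.12 and 1.13 in the shMib2 libraries. Single cells held up to 4, 8 and 19 Axl UMIs before thinning, where depth differs, and up to 2, 3 and 2 at 5000 UMIs per cell.

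**Figure D3:**
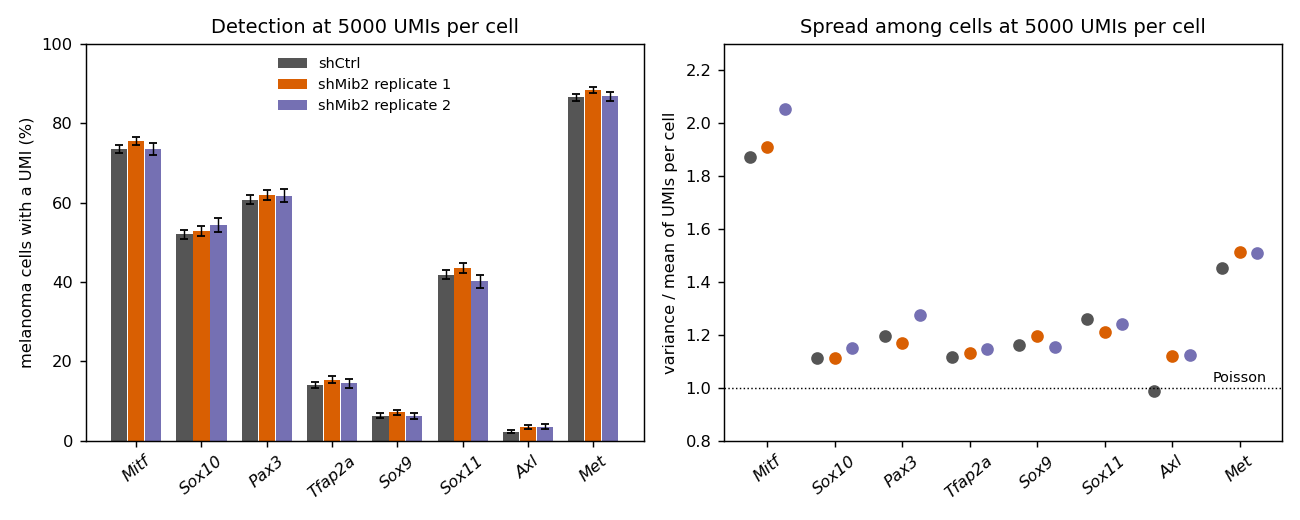
Left, share of melanoma cells with a UMI of each gene per library, every cell thinned to 5000 UMIs, with exact 95% Clopper-Pearson intervals as bars. Right, variance over mean of the UMIs per thinned cell, with the Poisson value of 1 dotted. The Axl share is 2.34% in shCtrl and 3.53% and 3.51% in the shMib2 libraries, and Mitf has the highest variance over mean, 1.87 to 2.06.

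Melanoma cells were compared over the 13 clusters, built without the 9 genes, that held enough of them in every library. Among these was an unnamed cluster led by hemoglobin genes. The genes differed in where they were high. These contrasts are descriptions with no test, given as the mean of the 3 libraries ± SD. Mitf was highest in the cluster led by Kcnj13, Coq8a and Mgll (476 ± 26.4 CPM, n = 3) and lowest in that led by Ndrg1, Hilpda and Ero1l (251 ± 28.4 CPM, n = 3), genes that hypoxia is known to induce. Tfap2a and Sox11 had the opposite order between the same clusters. Tfap2a had 77.3 ± 9.30 CPM in the Ndrg1 cluster and 16.9 ± 0.678 in the Kcnj13 cluster (n = 3), a ratio of 4.58, and Sox11 had 221 ± 25.2 and 78.1 ± 5.55 CPM (n = 3), a ratio of 2.84. The clusters were picked by their means over these same 3 libraries, so a shared direction among the libraries is no separate support. For Mitf and Sox11 the same clusters were highest and lowest in 3 of 3 libraries. For Tfap2a the Kcnj13 cluster was lowest in 3 of 3 and the Ndrg1 cluster highest in 2 of 3.

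The lineage activators varied less. Sox10 was lowest in the same Ndrg1 cluster, at 113 CPM, and highest at 191 CPM, and Pax3 ranged from 170 to 252 CPM. Met was highest in a cluster led by Ero1l and Espn, at 696 ± 27.0 CPM (n = 3), which was 1.90 times its lowest. Sox9 ranged from 8.99 to 24.4 CPM, the highest mean being that of the unnamed cluster led by hemoglobin genes, which was the highest in 1 of 3 libraries. Axl had the widest range of the 8 genes shown, from 2.93 to 25.1 ± 11.0 CPM (n = 3), a ratio of 8.57. The cluster with its highest mean was the highest in 3 of 3 libraries, and that with its lowest mean was the lowest in 1 of 3.

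**Figure D4:**
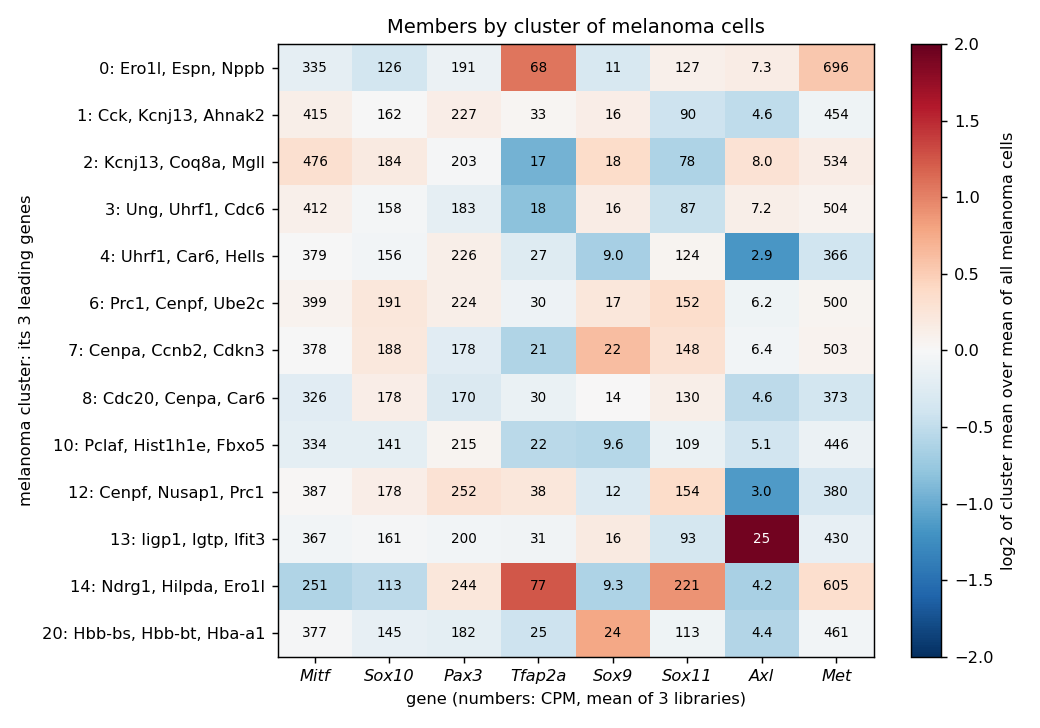
Level of 8 of the genes (columns) in melanoma cells of 13 clusters (rows, given by 3 leading genes), the one led by hemoglobin genes being unnamed. Color gives the log2 of the cluster mean over the mean of all melanoma cells, and the number printed is the CPM, mean of 3 libraries. By these means Tfap2a and Sox11 are highest in the Ndrg1 cluster, where Mitf and Sox10 are lowest, and Axl stands out in the cluster of interferon-induced genes at 25.1 CPM. For Tfap2a that cluster is the highest in 2 of 3 libraries.

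The cluster with the most Axl was led by Iigp1, Igtp, Ifit3, Rsad2, Ifit1 and Cxcl10, all genes that interferons induce. It held 89, 318 and 192 melanoma cells, or 1.19%, 5.32% and 5.44% of them. Axl there was 12.7 CPM (8.90-17.6) in shCtrl, 33.6 CPM (30.01-37.6) in shMib2 replicate 1 and 29.0 CPM (25.7-32.6) in shMib2 replicate 2, and an Axl UMI was found in 30.3%, 54.7% and 60.4% of its cells. These levels were above those of other melanoma cells in every library and, in the shMib2 libraries, above those of T cells by more than counting error. The cluster held 3.73%, 24.6% and 24.1% of all Axl UMIs of melanoma cells.

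Outside that cluster Axl was 4.47 CPM (4.18-4.76), 6.38 CPM (5.98-6.79) and 5.82 CPM (5.44-6.22), so the shMib2 libraries were still higher, by a log2 fold change of 0.40 that was not called (edgeR adjusted p = 0.197). This alternative was chosen after seeing the data. Without this cluster 18 genes were called in all. The cluster was a larger share of melanoma cells in both shMib2 libraries than in shCtrl, and its part in the call was not tested further.

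Fibroblast RNA in melanoma cell droplets was measured beside this result. All 12 fibroblast markers were above 0 in melanoma cells of every library and summed to 119, 154 and 130 CPM, but Fbln1, found in 80.0 to 88.9% of melanoma cells, and Fstl1, in 48.8 to 63.8%, made up most of the sum. The other 10 markers summed to 12.9, 42.4 and 22.7 CPM, higher in both shMib2 libraries as Axl was. Col1a1, a fibroblast collagen, was found in 1.07%, 14.1% and 15.3% of melanoma cells. At the level of those 10 markers fibroblast RNA would carry 0.105, 0.345 and 0.185 CPM of Axl. By Col5a1, which gives the most of those 10, it would carry 0.504, 0.744 and 0.561 CPM. All 12 markers together gave 0.891, 1.16 and 0.977 CPM. Alone, Fstl1 gave 2.79, 3.17 and 2.91 CPM and Fbln1 131, 135 and 132 CPM, the latter above the Axl counted. Axl was counted at 4.58, 7.97 and 7.21 CPM. How much of it fibroblast RNA carried was not tested.

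The 10 markers were lower inside the interferon gene cluster, at 3.88, 34.9 and 21.2 CPM, than outside it, at 13.0, 42.9 and 22.8 CPM. In the 6902, 2948 and 1456 melanoma cells with no UMI of the 10 markers, Axl was 4.54 CPM (4.24-4.85), 7.78 CPM (7.15-8.45) and 6.87 CPM (6.22-7.57). The log2 fold change was 0.66, beside 0.68 in all melanoma cells. A count of 0 for such sparse markers does not show that a droplet lacked fibroblast RNA, so its part in the Axl difference was not tested. In these fewer cells Axl was not called (edgeR adjusted p = 0.209) and 29 genes were called in all. RNA of other cells moved with the labels too, since melanoma cells held 81.0, 190 and 161 CPM of Hbb-bs, a hemoglobin gene of red blood cells, and 0.0664, 0.258 and 0.242 CPM of Cd3e, a T cell gene. Their part in the Axl difference was not tested. The choice of the 10 markers was made after seeing the data.

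**Figure D5:**
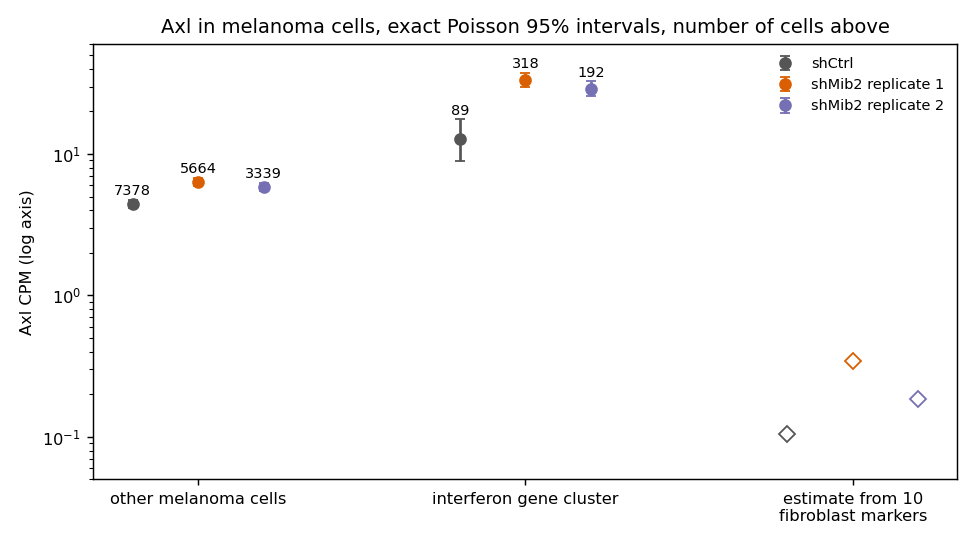
Axl CPM (log axis, exact 95% Poisson intervals) of each library in melanoma cells outside and inside the interferon gene cluster, with the number of cells above each point, beside the Axl level that fibroblast RNA would carry at the level of 10 fibroblast markers (open diamonds). Axl is 12.7, 33.6 and 29.0 CPM inside the cluster and 4.47, 6.38 and 5.82 CPM outside it. The estimate from those 10 markers is 0.105, 0.345 and 0.185 CPM. That from all 12 markers, 0.891, 1.16 and 0.977 CPM, is not drawn.

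Melanoma cells were also ranked by their summed Tyr, Tyrp1, Mlana and Slc45a2, melanin genes that the cell rule did not use, and cut into 4 bins of equal size. Sox11 was lower in each higher bin in all 3 libraries, and its level in the top bin was 0.723, 0.666 and 0.695 times that in the bottom bin. Met was higher in each higher bin in all 3, with ratios of 1.28, 1.35 and 1.27. Mitf had ratios of 1.25, 1.20 and 1.05, the last with an interval that includes 1. Sox9, often set against differentiation, had 1.80 (1.39-2.34), 1.44 (1.12-1.87) and 1.18 (0.814-1.71), so the top bin was the higher one in 2 of 3 libraries beyond counting error. Axl had 1.15, 1.13 and 1.00, with intervals that include 1, and Sox10 had 0.975, 0.960 and 1.04.

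Melanoma cells with an Axl UMI were compared with those without, at 5000 UMIs each. The ratio of Mitf between them was 0.915 (0.812-1.03), 0.952 and 1.09, and all intervals include 1. For Sox10, Pax3 and Met the intervals also include 1 in every library. A lower Mitf level in Axl-positive melanoma cells was not detectable at this depth.

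The genes most like each member across single melanoma cells are given as a description, as the mean of Pearson's r over 3 libraries among 7390 genes. The correlations were weak, and cells of a library share their depth and ambient RNA. Mitf was most like Ppargc1a (0.128), an MITF target, Pde10a (0.126) and Nr4a3 (0.126). Sox10 was most like Mitf (0.0983), then Arl6ip1 (0.0740) and Ptms (0.0713). Met was most like Ugp2 (0.236), Mgll (0.208) and Gpnmb (0.191), and Sox9 like Mgll (0.103), Trpm1 (0.0625) and Cyb5a (0.0591). Gpnmb and Trpm1 are known MITF targets.

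The other factors had different neighbors. Tfap2a was most like Ero1l (0.180), Espn (0.146) and Lgals3 (0.143), and Sox11 like Cenpf (0.147), Hmgb2 (0.137) and Mki67 (0.133), genes of dividing cells. Pax3 was most like the nuclear RNAs Malat1 (0.174) and Neat1 (0.0996) and Atrx (0.105). Axl and Ngfr were in too few cells for this comparison.

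Genes around the members were read from 5 lists. Of their 74 genes 54 were tested and edgeR called 0, beside 0.834% over all genes. With edgeR 11 had an unadjusted p under 0.05, beside 2580 of all 15700 genes tested. DESeq2 called 1, Pmel, beside 1.54% over all genes. All 16 MITF target genes were tested, with a median log2 fold change of 0.03. Those with the lowest p were Pmel (-0.18, SE 0.05, edgeR adjusted p = 0.199), a gene the cell rule used, Rab27a (0.14), which carries melanosomes, Cdk2 (0.09) and the lysosomal channel gene Mcoln1 (0.16). Of 10 signals and factors upstream of Mitf, 7 were tested, with a median of 0.05. Kit, the receptor of stem cell factor, had 2.28, 3.42 and 3.08 CPM and a log2 fold change of 0.46 (edgeR adjusted p = 0.155), the same order of libraries as Axl. Its ligand gene Kitl had 0.85 from 38, 63 and 45 UMIs, Creb1 had 0.09, and Mc1r, the melanocortin receptor, had -0.04. Ednrb, Edn3 and Lef1 did not pass the filter.

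Of 13 paralogs of the members, 8 were tested, with a median of 0.03. Tfe3 and Tfeb, the relatives of Mitf, each had 0.05. Sox4, the SoxC relative of Sox11, had 75.7, 71.0 and 67.0 CPM and a log2 fold change of -0.18 (edgeR adjusted p = 0.136). Tyro3, a TAM receptor like Axl, had -0.13.

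Of 13 ligands and partner receptors, 7 were tested, with a median of 0.10. Pros1, which encodes a TAM receptor ligand, had 7.20, 8.50 and 8.42 CPM and a log2 fold change of 0.19 (edgeR adjusted p = 0.235). Gas6, the AXL ligand, was nearly absent from melanoma cells, with 5, 15 and 10 UMIs. Bdnf had 0.54 and Sort1, a partner of NGFR, 0.10.

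Of 22 other genes of undifferentiated or invasive melanoma, 16 were tested, with a median of 0.09. Fn1, which encodes fibronectin, had 14.2, 18.9 and 17.6 CPM and a log2 fold change of 0.32 (edgeR adjusted p = 0.0909), and Ccn2 had 0.24 (edgeR adjusted p = 0.141). Tgfbi had 2.66 (edgeR adjusted p = 0.155) from 4, 21 and 20 UMIs, and Egfr 2.46 (edgeR adjusted p = 0.229) from 3, 16 and 11 UMIs. Both were close to absent. With edgeR 5 of the 16 had an unadjusted p under 0.05, all higher in shMib2, beside 2580 of all 15700 genes tested. Fn1 is also abundant in fibroblasts, and the part of fibroblast RNA in the values of this list was not tested.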

How the data were processed

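The authors deposited 3 matrices of raw UMI counts for 32285 genes, made with Cell Ranger 4.0.0 on mm10 per the labels, which name a 10x Chromium V(D)J v1.1 kit. The annotation release is not given in the sources used here. The 9 genes and all gene lists were chosen with earlier results of these data known, so no list is independent evidence. Named genes were the 9 members, up to 4 tested genes of lowest p in each list, and the 3 genes most like each member.

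Barcodes with fewer than 200 genes or over 20% mitochondrial UMIs were dropped (741, 860 and 1105 in shCtrl, shMib2 replicate 1 and shMib2 replicate 2), and predicted doublets were removed at 0.8% per 1000 barcodes (622, 587 and 424). The remaining 8195, 7981 and 6859 barcodes were clustered together on 2000 variable genes without the members (30 principal components, 20 neighbours, Leiden resolution 1, seed 7, leidenalg 0.10.2), and clusters were named by markers. Near the limit of the melanoma rule, 69, 78 and 46 cells held 0.4 to 0.5% Dct and Pmel and 99, 103 and 52 held 0.5 to 0.6%. Of the selected cells, 64, 73 and 66 lay in unnamed clusters.

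UMIs were summed per library and tested with edgeR 4.0.16 in R 4.3.3 (TMM, filterByExpr, quasi-likelihood test, Benjamini-Hochberg over all genes, threshold 0.05). DESeq2 1.42.0 and other filters, cell rules and replicates left out were alternatives. Shares were thinned with a fixed seed. On simulated counts for this comparison over 15700 genes, 99 of 100 genes changed by a log2 of 1 and 100 of 100 changed by 2 were recovered, with 17 false calls among 216. Promoters were read from RefSeq tables.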

Additional observations from a re-analysis of the deposited data

Results flagged for a closer look

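Mitf moved in opposite directions between the labels in the 2 cell classes. In melanoma cells the shMib2 libraries stood at 1.09 and 1.06 times shCtrl, and in fibroblasts at 0.521 and 0.431 times shCtrl. Each shMib2 library went one way in melanoma cells and the other way in fibroblasts, which is what drew attention to it, and the difference was not tested. The fibroblast value of shCtrl rests on 5 UMIs in 6 cells, and its interval in the ratio to free melanoma RNA, 1.71 to 12.3, covers the values of both shMib2 libraries. Axl was higher in shMib2 in both classes, at 1.74 and 1.57 times shCtrl in melanoma cells and 1.65 and 1.53 times in fibroblasts.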

How the results depend on the processing

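No paired analysis was possible, because there was 1 shCtrl library and the labels pair no libraries. The count of 131 called genes was 241 with DESeq2 (178 higher and 63 lower in shMib2, against 128 and 3), 260 with all deposited barcodes under the rule, 70 with at least 50 UMIs in 1 library, 49 with cells thinned to 5000 UMIs and 0 with no filter on low counts, where edgeR gave 2363 genes an unadjusted p under 0.05. Among alternatives added after seeing the data it was 18 outside the interferon gene cluster, 29 in cells with no UMI of 10 fibroblast markers and 2 in cells with no UMI of all 12. The log2 fold change of Axl stayed above 0 in all 13 fits, with adjusted p from 0.00147 to 0.9997, and was not called at 0.6756 with no filter, 0.688 with at least 50 UMIs, 0.6599 with Dct and Pmel at least 1%, 0.6573 thinned, 0.4032 outside the interferon gene cluster, 0.6644 with no UMI of 10 fibroblast markers and 0.9418 with no UMI of all 12. With all deposited barcodes under the rule, predicted doublets included, the Axl value was 0.9329 (edgeR adjusted p = 0.0225), beside 0.6824 as reported. The part of doublets in it was not tested. Without each shMib2 replicate the Axl value was 0.6334 to 0.7334, with no test since no residual degree of freedom was left, and the Axl ratio of fibroblasts to melanoma cells was 48.9 to 50.0. Among genes not called, signs turned for Sox10 with all barcodes (-0.002463), for Pax3 with Dct and Pmel at least 1% (0.00387), thinned (0.02548) and outside the interferon gene cluster (0.00462), and with no UMI of all 12 fibroblast markers for Sox9 (-0.1814), Sox11 (0.03286) and Met (-0.002923). The cause of these changes was not tested. Of 45 fibroblast levels 44 moved by less than 1 SD, as did 55 of 72 melanoma levels. A single control library and 6 fibroblasts in shCtrl limit every comparison between labels.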
